A study of Mus musculus with 12 samples.

Results

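Mup1, Stat5a and Stat5b are the genes of the growth hormone axis that these liver arrays measure by name. They were found through the RefSeq transcript given for each probe: 1 probe matched each gene, so the genes are 3 of the 33012 probes on the array. Mup1, on mouse chromosome 4, encodes a major urinary protein, a small carrier protein that liver secretes into blood and that leaves in urine. Stat5a and Stat5b lie next to each other on chromosome 11 and encode a pair of closely related transcription factors.

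In liver, growth hormone binds its receptor on hepatocytes, the receptor-bound kinase Jak2 is activated, and STAT5 proteins are phosphorylated, move to the nucleus and bind DNA. Stat5b is the more abundant form in hepatocytes and is needed for the male pattern of liver gene expression in mice, and Stat5a is best known from the mammary gland, where it acts downstream of prolactin. The Mup genes are classical targets of growth hormone and STAT5 in mouse liver, with higher levels in males, and their transcripts accumulate strongly between weaning and sexual maturity. Hdac3 encodes a histone deacetylase that works within nuclear receptor corepressor complexes.

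Liver RNA of mice labelled C57B/6 was hybridised to 12 ABI1700 arrays, which carry 1 labelled sample each and are read by chemiluminescence. There were 4 groups: control and Hdac3-null livers at postnatal day 17 (P17) and at postnatal day 28 (P28). Control mice expressed Albumin-Cre, a Cre recombinase under the albumin promoter, which acts in hepatocytes, and their Hdac3 was wild-type in the first pools and wild-type or heterozygous in the second pool at P28. For the second control pool at P17 only the series' design text applies, which allows either genotype. The labels do not say which Cre removed Hdac3 from the null livers, and they give no sex of the mice, although Mup1 and other growth hormone targets differ between the sexes. Each pool held RNA of 5 mice, each group had 2 pools, and the first pool was run in duplicate as technical replicates on separate chip lots, so a group has 3 arrays and n = 2 pools. The limma p-values use a spread between pools of a group that is estimated over all 4 groups and moderated across probes. That spread includes whatever differed in how the arrays of the pools were processed. The number of pools and arrays limits the precision of every value.

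Intensities are quantile-normalized values over the 12 arrays, without a unit. A level of 965 (9.91 on the log2 scale), the 60th percentile of all normalized values, served as a stand-in for detection. The deposited values fell into 3 sets of 4 arrays that share 1 distribution, and what the arrays of a set have in common is not stated in the labels: the P17 first pools, the P28 first pools and all second pools, with array medians from 405 to 862.7. Control and null arrays of the same pool number and age always fell in the same set, whereas for the first pools the ages fell in different sets. Besides the 3 genes, 308 probes had a gene name, and of the markers listed for other cell types only Krt23 (cholangiocyte), Hba-a1 (erythroid) and Lst1 (leukocyte) were among them. None of the 7 hepatocyte markers listed and no probe for Hdac3 itself was named, so neither the tissue label nor the deletion could be checked here. In bulk RNA, fewer cells of a type and less RNA per cell cannot be told apart.

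The promoters of the Stat5 pair are shown because the genes are adjacent and closely related and their probes were compared array by array. RefSeq (GRCm38.p6) lists 2 start sites for each gene, and the windows below are the pair with the longest identical run. Stat5a is read from the plus strand at chr11:100860234-100860483 and Stat5b from the minus strand at chr11:100822571-100822820. Each window is the 250 bases before a start site, 5′ to 3′, with the shared run of 16 bases in capitals.
Stat5a: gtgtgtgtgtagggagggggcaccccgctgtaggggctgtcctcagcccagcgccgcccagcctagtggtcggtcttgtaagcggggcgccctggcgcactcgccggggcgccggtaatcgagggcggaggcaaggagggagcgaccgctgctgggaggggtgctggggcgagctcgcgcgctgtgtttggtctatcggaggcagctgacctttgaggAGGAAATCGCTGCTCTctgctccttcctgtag
Stat5b: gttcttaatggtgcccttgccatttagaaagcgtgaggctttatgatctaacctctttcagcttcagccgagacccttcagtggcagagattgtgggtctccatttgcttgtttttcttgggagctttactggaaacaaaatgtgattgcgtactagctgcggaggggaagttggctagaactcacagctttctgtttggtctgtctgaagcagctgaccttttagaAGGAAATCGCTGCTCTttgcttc
The run ends 17 bases before the Stat5a start and 8 bases before the Stat5b start. The Stat5a window is 68.0% G and C and the Stat5b window 46.4%. At the other start sites the order is the opposite, with 57.6% for Stat5a and 82.0% for Stat5b. The STAT5 binding motif TTCNNNGAA, which reads the same on both strands, has no match in either window or in the windows of the other start sites, while 7.0% of 32851 RefSeq promoter windows of this length hold it. No match says only that these letters are not in these windows.

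The Mup1 probe was far brighter at the later age in both genotypes, which passed the test over all probes in control liver and narrowly missed it in null liver. In P17 control liver the normalized intensity of the probe was 6054 and 5767 on the arrays of the first pool and 11009 in the second pool. In control liver at P28 it was 1899571 and 2113408 in the first pool and 1230032 in the second. All 3 arrays at P28 lay far above all 3 at P17, an order shared by 8% of probes. The log2 level rose from 12.98 ± 0.63 to 20.58 ± 0.50 (SD, n = 2 pools), a difference of 7.60 (SE 0.49, 95% interval 6.47 to 8.74), or 195-fold, with a limma adjusted p = 0.0022. Mup1 was the only one of the 3 genes called in this comparison, where 0.176% of all 33011 probes tested were called and 0.124% were called higher. Only 6 probes had a larger positive difference. The increase was 8.41 in the first pools, which lie in different array sets, and 6.80 in the second pools, which share a set. With the array set as a block the difference was 7.41 (SE 0.59) and the call was lost (limma adjusted p = 0.17). That block takes the age difference averaged over the genotypes from the second pools alone, since the first pools of the ages lie in different sets. The age difference within a genotype also draws on null minus control in both pool numbers, so it is not the second-pool value.

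In Hdac3-null liver the Mup1 probe was also brighter at P28. The intensity at P17 was 40433, 39271 and 42107 on the 3 null arrays, a narrow range in both pools. At P28 it was 1034860 and 952950 in the first null pool and 1876921 in the second. The arrays of the ages were again apart without overlap, as for 8.98% of probes that were higher at P28. The log2 means were 15.32 ± 0.06 and 20.38 ± 0.65 (SD, n = 2 pools), and their difference of 5.06 (SE 0.49, 95% interval 3.93 to 6.19), or 33.3-fold, missed the threshold (limma adjusted p = 0.058). In this comparison 0.00909% of probes, 3 in all, were called, and 3 probes had a larger positive difference than Mup1. The increase was 4.64 in the first pools and 5.48 in the second. With the array set as a block it was 4.87 (limma adjusted p = 0.36).

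**Figure D1:**
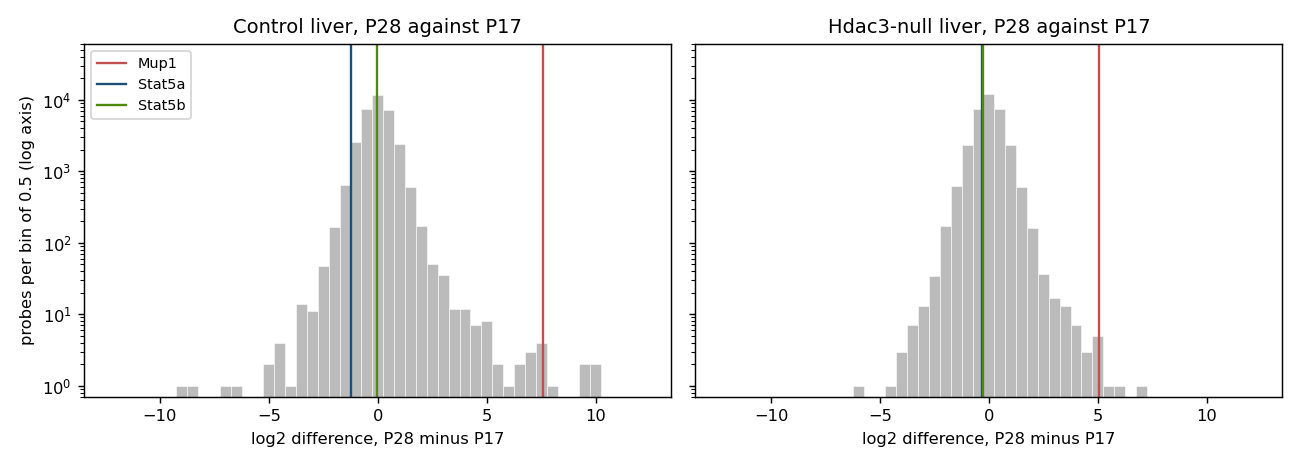
Number of probes (log axis) in bins of 0.5 of the log2 difference P28 minus P17, for control liver on the left and Hdac3-null liver on the right, over the 33011 probes tested. Vertical lines mark Mup1, which lies in the right tail of both panels at 7.60 and 5.06, Stat5a and Stat5b. Stat5b lies within the body of both distributions, as does Stat5a in null liver. In control liver Stat5a lies at -1.25, where 897 probes were lower.

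The genotypes differed in the Mup1 level at P17, where the probe was brighter in null liver on every array. The lowest of the null arrays, 39271, lay above the highest control array, 11009, as was the case for 7.85% of probes that were higher in null liver. The log2 difference was 2.34 (SE 0.49, 95% interval 1.21 to 3.48), or 5.08-fold, and was 2.75 between the first pools and 1.94 between the second pools. The unadjusted p was 0.0015, and over all probes the difference did not pass (limma adjusted p = 0.29). At P17, 0.0454% of all probes were called, none of them among the 3 genes. Only 98 probes had a larger positive difference than Mup1 at this age. The Mup1 call depended on the estimate of spread. With trended and robust variances the same difference had a limma adjusted p = 0.032. With the 12 arrays kept apart and the pool as a random block it was 2.43 with a limma adjusted p = 0.016. The random block used a single correlation of 0.33 for all probes, whereas duplicate Mup1 arrays differed by at most 0.15 and pools by up to 0.92. That fit therefore counted the Mup1 duplicates largely as separate samples, and its p is likely too small.

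At P28 the pools went in opposite directions. The first null pool lay below the first control pool by 1.01 on the log2 scale, and the second null pool lay above the second control pool by 0.61. The arrays of the genotypes overlapped, and the mean difference was -0.20 (SE 0.49, 95% interval -1.33 to 0.93, limma adjusted p = 0.97). Without the first control pool the difference was 0.15 and without the first null pool 0.26, so its sign rests on those pools. The effect of genotype at P28 minus that at P17, which is also the age difference in null minus that in control liver, was -2.55 (SE 0.69, 95% interval -4.15 to -0.95), with -3.77 in the first pools and -1.33 in the second. Its unadjusted p was 0.0066 and its limma adjusted p 0.81. For this difference of effects 0% of probes were called by limma. An unadjusted p under 0.05 was found for 1530 probes, or 4.63%, which is no more than the 5% that evenly spread p-values would give.

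The order of the Mup1 levels was P17 control, P17 null, P28 null and P28 control. Neighbours in this order were 2.34, 5.06 and 0.20 apart on the log2 scale, and the arrays of the last 2 groups overlapped. By rank among all probes of its array, the probe stood between 4335 and 6121 in P17 control liver and between 1827 and 1911 in P17 null liver. At P28 it was among the brightest probes, with ranks from 7 to 50 in control liver and from 12 to 81 in null liver. The RefSeq table lists 22 genes of the Mup family, many with near-identical transcripts, and the probe's value is uncertain for Mup1 alone. Duplicate arrays of a pool differed by 0.04 to 0.15 for Mup1, and the pools of a group by 0.08 to 0.92.

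**Figure D2:**
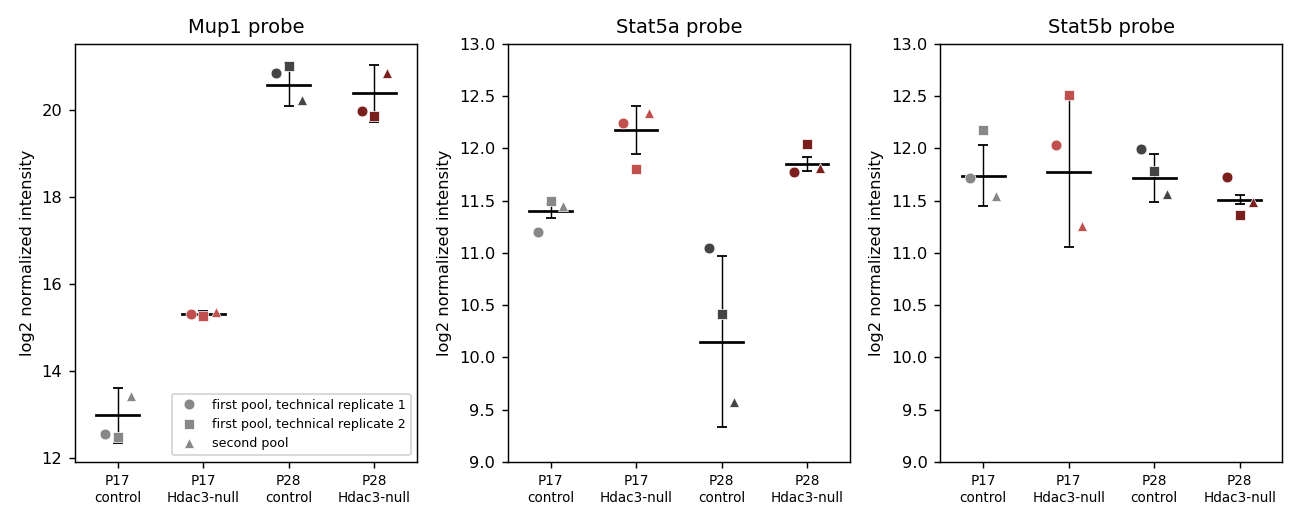
Log2 normalized intensity of the Mup1, Stat5a and Stat5b probes on each of the 12 arrays, by group. Circles and squares are the duplicate arrays of the first pool, triangles the second pool, and lines with bars are the mean ± SD over 2 pools. Mup1 goes from 12.98 in P17 control to above 20 in both P28 groups, Stat5a is lowest in P28 control, and Stat5b overlaps in all groups.

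Stat5a was brighter in null than in control liver at both ages, but neither difference passed the test over all probes. At P17 the control arrays read 2346, 2904 and 2797 and the null arrays 4851, 3560 and 5185. The lowest null array lay above the highest control array, the order that 7.85% of probes had at this age, and 12.7% of probes differed by at least as much as Stat5a in either direction. The log2 means were 11.40 ± 0.07 and 12.18 ± 0.23 (SD, n = 2 pools), a difference of 0.78 (SE 0.44, 95% interval -0.24 to 1.80), or 1.72-fold, with 0.67 in the first pools and 0.89 in the second (limma adjusted p = 1).

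At P28 the control arrays read 2124 and 1361 in the first pool and 760.2 in the second, which is below the level taken for detection. The null arrays read 3489, 4203 and 3579. The groups were again apart on all arrays, as were those of 9.19% of probes that were higher in null liver. The log2 means were 10.15 ± 0.82 in control and 11.85 ± 0.07 in null liver, a difference of 1.70 (SE 0.44, 95% interval 0.68 to 2.72), or 3.26-fold. It was 1.17 in the first pools and 2.24 in the second, with an unadjusted p of 0.0051 and a limma adjusted p = 0.22. At P28, 0.397% of all probes were called and none of the 3 genes was, and 2.78% of probes differed by at least as much as Stat5a in either direction. Without the second control pool, the dimmest, the difference was 1.12 (limma adjusted p = 0.47).

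Both ages together gave a null-against-control difference of 1.24 for Stat5a (SE 0.31, 95% interval 0.52 to 1.96), or 2.37-fold, with an unadjusted p of 0.0043 and a limma adjusted p = 0.19. All 4 pairs of pools had a positive difference, as did those of 10.9% of probes. In this contrast, added after the data were seen, 0.624% of probes were called, none of the 3 genes among them. An exact two-sided permutation test that moved the genotype labels freely within each age gave p = 0.056 for Stat5a, which is the smallest p that its 36 arrangements allow. Swapping labels only within the 4 pairs of the same pool number and age, which lie in the same array set, gave an exact p = 0.125, again the smallest that its 16 arrangements allow. For Mup1, with a mean difference of 1.07, the exact permutation p was 0.28 and 0.375, and for Stat5b, with -0.09, it was 0.67 and 0.5, in the same order. None of these reaches 0.05, and neither form can. The effect on Stat5a at P28 minus that at P17 was 0.92 (SE 0.62, 95% interval -0.52 to 2.37, limma adjusted p = 1). It was 0.34 without the second P28 control pool and 1.5 without the first. With technical replicate 1 alone it was 0.51 and with technical replicate 2 alone 1.34, so the ages are not shown to differ.

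With age, the Stat5a probe was dimmer in control liver at P28 on every array, an order in which 10.2% of probes were lower. The log2 difference was -1.25 (SE 0.44, 95% interval -2.27 to -0.23, limma adjusted p = 0.59), and it was -0.62 in the first pools and -1.88 in the second. It was -0.67 without the second and -1.83 without the first control pool at P28. With the array set as a block it was -1.67 (limma adjusted p = 0.41). There the age difference averaged over the genotypes comes from the second pools alone. In null liver the age difference was -0.33 (SE 0.44, 95% interval -1.35 to 0.69, limma adjusted p = 0.96), and the arrays overlapped. It was -0.75 with the array set as a block and ran from -0.49 to -0.17 without 1 pool. In order of level the groups were P28 control, P17 control, P28 null and P17 null, with gaps of 1.25, 0.45 and 0.33, and only the arrays of the last 2 groups overlapped. Duplicate arrays differed by 0.27 to 0.64 for Stat5a and pools by 0.10 to 1.16, the widest being the P28 control pools.

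Lst1 was the only leukocyte marker of the 6 listed that a named probe measured. Its course was like that of Stat5a only in part, since it was not brighter in null liver at P17. Its log2 mean was 11.82 ± 0.11 in P17 control, 11.72 ± 0.18 in P17 null, 10.23 ± 0.17 in P28 control and 11.45 ± 0.05 in P28 null liver (SD, n = 2 pools). The null-against-control difference was 1.23 at P28 (SE 0.33, limma adjusted p = 0.23) and -0.10 at P17. It was dimmer in P28 control than in the other groups, as Stat5a was, and its part in the Stat5a result was not tested. For Krt23, null minus control was -1.21 at P17 and -0.91 at P28 (SE 0.61), and for Hba-a1 it was 0.12 and 0.13 (SE 0.34).

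The Stat5b probe showed no difference between groups beyond the spread of its pools. Control arrays at P17 read 3368, 4639 and 2978, and null arrays 4189, 5841 and 2457. Control arrays at P28 read 4069, 3519 and 3009, and null arrays 3387, 2621 and 2868. The arrays of the groups overlapped at both ages. The log2 means were 11.74 ± 0.29, 11.77 ± 0.71, 11.72 ± 0.23 and 11.51 ± 0.04 (SD, n = 2 pools) in P17 control, P17 null, P28 control and P28 null liver. The null-against-control difference was 0.02 at P17 (SE 0.43, 95% interval -0.97 to 1.01) and -0.21 at P28 (SE 0.43, 95% interval -1.20 to 0.78), with limma adjusted p of 1 and 0.96. These intervals reach about 1 log2 unit either way, so differences of that size are not excluded. A call over all probes needs a larger difference still. Mup1 at P17 (2.34, SE 0.49) and Stat5a at P28 (1.70, SE 0.44) were not called. The age difference was -0.02 in control (95% interval -1.01 to 0.97) and -0.25 in null liver (95% interval -1.24 to 0.74). The pools disagreed in sign at P17, with 0.32 and -0.28. The order of the groups was P28 null, P28 control, P17 control and P17 null, and the arrays of all neighbours overlapped.

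**Figure D3:**
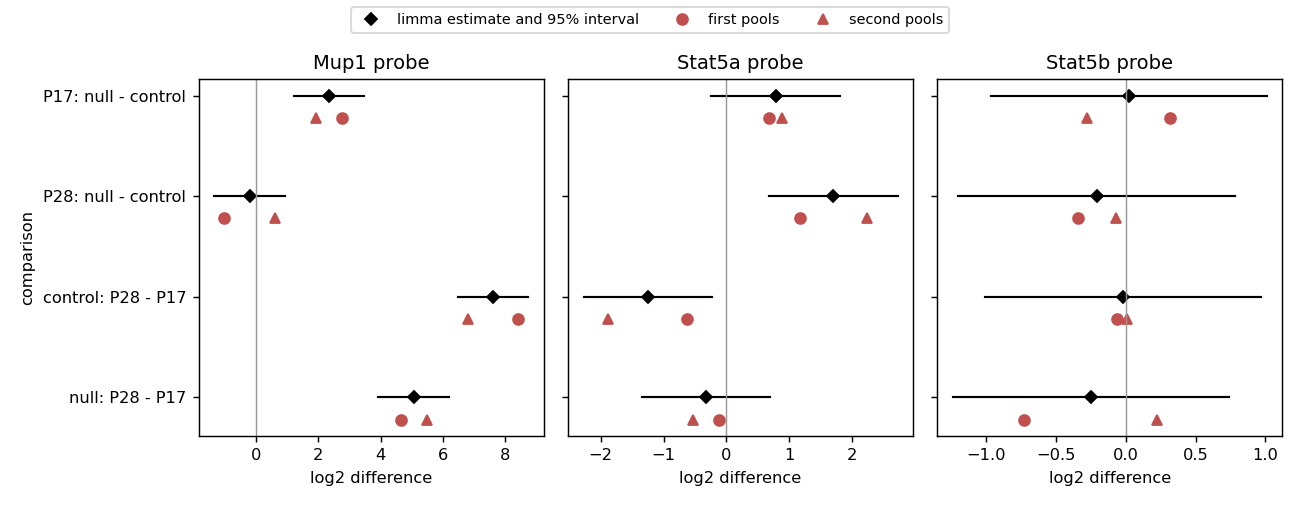
Log2 differences of the 3 probes for null minus control at each age and for P28 minus P17 in each genotype. Diamonds with bars are the limma estimate and its 95% interval, circles the first pools and triangles the second pools, and the horizontal scales differ between panels. The Mup1 pools lie on opposite sides of 0 at P28, those of Stat5a are above 0 for null minus control at both ages, and every Stat5b interval includes 0.

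Since the Stat5 probes were read on the same arrays, the log2 value of Stat5a minus that of Stat5b was followed within each array. Its sign has no meaning of its own, because the probes differ in response, but its change between groups compares the genes. It was -0.52, -0.68 and -0.09 on the P17 control arrays and 0.21, -0.71 and 1.08 on the P17 null arrays. It was -0.94, -1.37 and -1.98 on the P28 control arrays and 0.04, 0.68 and 0.32 on the P28 null arrays. Genotypes overlapped at P17 and were apart at P28. Null exceeded control by 0.76 at P17, with 0.35 and 1.17 in the pools, and by 1.91 at P28, with 1.52 and 2.30. Without 1 pool the value ran from 0.09 to 1.42 at P17, the ends being without the second and without the first null pool, and from 1.5 to 2.33 at P28. The mean over both ages was 1.33, with an exact two-sided permutation p = 0.11 against a smallest possible p of 0.056, and p = 0.125 with swaps within pairs, the smallest possible there.

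**Figure D4:**
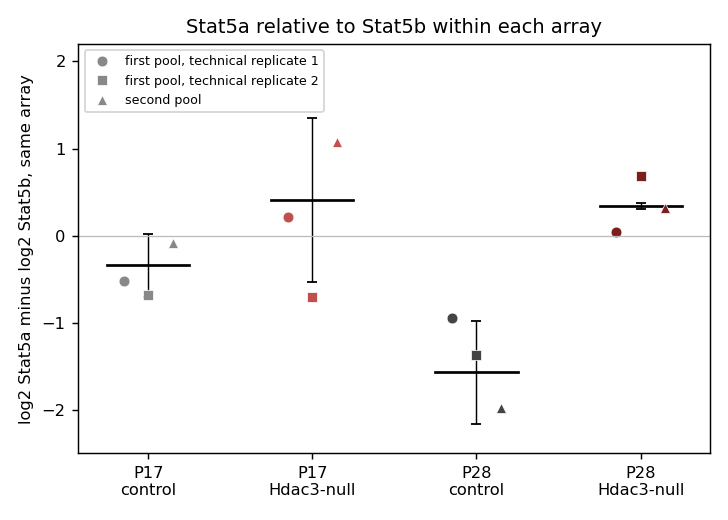
Log2 intensity of the Stat5a probe minus that of the Stat5b probe on the same array, for the 12 arrays by group. Circles and squares are the duplicate arrays of the first pool, triangles the second pool, and lines with bars the mean ± SD over 2 pools. All P28 control arrays lie below -0.9 and all P28 null arrays lie above 0.

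Other genes of the axis were hardly covered by named probes. Of 24 growth hormone signalling genes listed, including the receptor Ghr, Jak2, the Socs inhibitors and the effector Igf1, 2 were measured, Stat5a and Stat5b. Of 64 genes whose liver level depends on growth hormone, 1 was measured by a named probe, Mup1. Only 311 of the 33012 probes had a gene name, so other listed genes may be among the unnamed probes. Of 6 mammary genes known to respond to STAT5, the caseins Csn1s2a, Csn1s2b and Csn2 and the whey protein Wap were measured. Csn1s2a, Csn1s2b and Wap reached 965 on no array, and Csn2 reached it on 2 of 3 arrays in each P17 group and on none at P28. None of these 4 was called in any comparison. Among the 20 genes on either side of the Stat5 pair, named probes measured Ghdc, next to Stat5b, and Vps25, Wnk4 and Coa3, which lie 17 to 19 genes from Stat5a. Ghdc differed between null and control by 0.22 at P17 and 0.49 at P28 (SE 0.35, limma adjusted p of 1 and 0.78), and none of the 4 neighbours was called.

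The patterns most like each gene were sought among 127 named probes above the detection level, by Pearson's r over the 8 pool values. The probes share arrays, array sets and the age groups, so r is a description only. Mup1 was most like Nat8f2, of an N-acetyltransferase family (r = 0.88), Plin3, which encodes a lipid droplet protein (0.76), and the histone gene H2bc13 (0.68). Nat8f2 had log2 means of 15.56 in P17 control, 16.47 in P17 null, 17.27 in P28 control and 16.72 in P28 null liver, the same order of groups as Mup1. Over the 12493 probes of that level, 0.608% were at least as like Mup1 as Nat8f2 was. The share was 2.24% for Plin3 and 4.21% for H2bc13. Unlike Mup1, H2bc13 was lower in null than in control liver at P17 (14.53 against 15.26). Stat5a was most like Lst1 (0.85), the galectin gene Lgals7 (0.82) and Bcl2a1b, of the anti-apoptotic Bcl2 family (0.80). Of all probes compared, 0.816% were at least as like it as Lst1, 1.44% as Lgals7 and 1.74% as Bcl2a1b. All 3 were dimmest in P28 control liver. Unlike Lst1, Lgals7 and Bcl2a1b had higher means in null than in control liver at P17 too. Bcl2a1b had log2 means of 12.01 in P17 control and 13.16 in P17 null liver. At P28 they were 11.71 ± 0.91 in control and 13.88 ± 0.28 in null liver (SD, n = 2 pools). The part of these genes in the Stat5a result was not tested. Stat5b was most like the forkhead gene Foxn3 (0.83), the nucleolar GTPase gene Gnl2 (0.81) and the dynein light chain gene Dynlt1b (0.66). Here 0.68% of probes were at least as like it as Foxn3, 0.977% as Gnl2 and 5.5% as Dynlt1b. With Spearman's rho in place of r, 1 of the 3 remained for Mup1, 1 for Stat5a and 2 for Stat5b.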

How the data were processed

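Per the labels' protocols, total liver RNA with an RNA integrity number of at least 7.0 was labelled with digoxigenin by in vitro transcription and hybridised to ABI1700 arrays. The authors' deposited table gives 1 linear intensity per array for each of 33012 probes, made by steps not given in the sources used here. From the scanner exports came each probe's RefSeq transcript only, since their 52 columns of per-sample values carry no sample name, and these were not used. Of 517 probes with a RefSeq transcript, 311 matched 1 gene. Empty cells made up 0.72% of the table.

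Quantile normalization was run over the 12 arrays. Values under the 5th percentile (174.7) were set to it, log2 was taken, and duplicate arrays of a pool were averaged. Neither the 3 probes' values nor their pools were at the floor or empty. Tests used a linear model of the 4 groups over 8 pools, with 4 residual degrees of freedom, in limma 3.58.1 (lmFit, then eBayes) under R 4.3.3, over 33011 probes with Benjamini-Hochberg adjustment, and called at an adjusted p under 0.05. The script was tested on simulated data. Named were the 3 genes, the measured members of the growth hormone lists and marker lists, and the 3 named probes most like each gene. The mammary gene list, the neighbouring genes, the contrast over both ages, the exact permutation tests and the ratio of the Stat5 probes were added after the data were seen. The members and lists were chosen with earlier results of these data known. Alternatives were other normalizations, floors, filters, variance models, treatments of technical replicates, blocks, and leaving out each pool.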

Additional observations from a re-analysis of the deposited data

How the results depend on the processing

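Each group has 2 pools, and levels below 965 are uncertain. Called probes numbered 15 at P17, 131 at P28, 0 for the difference of effects, 58 with age in control, 3 with age in null and 206 over both ages, the order used below. Keeping probes that reach the 60th percentile gave 110, 579, 17, 158, 103 and 678. The 12 arrays with the pool as a random block (correlation 0.33) gave 199, 599, 73, 217, 181 and 727, and trended, robust variances gave 126, 411, 39, 149, 122 and 520. With the replicate block by pool the counts were 5, 246, 2, 66, 2 and 342, and no call of the 3 genes changed. Deviations of same-numbered pools correlated with r = 0.524 to 0.657 over 6 pairs of groups. The labels name no source that same-numbered pools share. With the array set as a block the counts were 0, 5, 0, 2, 0 and 27. Fits of only the compared pools gave 0, 0, 10 and 0 without the difference of effects. Technical replicate 1 alone gave 65 at P28 and 113 over both ages, and technical replicate 2 alone 9, 79 and 119 at P17, P28 and over both ages. Deposited values without normalization gave 2, 13, 0, 22, 2 and 14, and an offset of 50 gave 3 for the difference of effects and 13 with age in null. Leaving out 1 pool gave 0 to 5, 0 to 28, 0 to 0, 13 to 40, 0 to 1 and 7 to 32. Where no value above shows it, the cause was not tested.

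Mup1 was called with age in control in 19 of 20 alternatives, leaving out any 1 pool included (7.16 to 8.05), and lost with the array set as a block (7.41). With age in null it passed with an offset of 50 (5.06, limma adjusted p = 0.041), the random block (4.97, 0.00039), the filter (5.06, 0.019) and trended, robust variances (5.06, 0.00079). Mup1 at P17 passed with the random block (2.43) and with trended, robust variances (2.34), and ran from 1.90 to 2.79 without 1 pool. The random block counts the near-equal Mup1 duplicates largely as separate samples, so its p-values for Mup1 are likely too small. The sign turned for Stat5b with age in control with technical replicate 1 alone (0.14) and with the array set block (0.23), and for Stat5b with age in null with that block (0). Leaving out 1 pool, Mup1 at P28 ran from -0.66 to 0.26, Stat5a at P28 from 1.12 to 2.28, and Stat5b from -0.48 to 0.53 at P17, from -0.73 to 0.27 for the difference of effects, from -0.23 to 0.18 with age in control, from -0.76 to 0.25 with age in null and from -0.34 to 0.16 over both ages. Without normalization the level of Mup1 in P17 null was 15.44 and that of Stat5a in P17 control 11.54. Stat5a kept its direction in all alternatives run, and neither Stat5a nor Stat5b was called in any. Each gene had 1 probe, so no other probe could be tried.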
